A study of Rattus norvegicus with 192 samples.

Results

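Voltage-gated calcium and sodium channel genes were followed in RNA of the nucleus accumbens core of outbred rats. The members were taken by symbol, as every gene of the table named for a pore-forming, beta, alpha2delta or gamma calcium channel subunit or for a sodium channel pore or beta subunit. This gave 40 of the 38354 genes, and 33 of them had a mean of at least 1 CPM (counts per 1000000 counts of the library) over the libraries. PolyA RNA was sequenced, and 159 libraries were in the table. Of 192 labelled libraries, a further 33 are marked as removed and were left out. No treatment, sex or age is in the labels. The libraries used fall into 77 libraries with an identifier that starts with E21, 67 with an all-digit identifier (numeric), 2 that start with AA1, 12 corrected to the E21 form after a genotype check and 1 corrected to another form. Each library carries its own rat identifier and was taken as 1 rat. Total estimated counts ranged from 14.6 to 61.2 M per library, where M stands for 1000000.

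Voltage-gated calcium channels open when a neuron depolarises and let in calcium, which drives transmitter release, dendritic signalling and changes in transcription. Their pore is 1 alpha1 protein, which a cytoplasmic beta subunit and an extracellular alpha2delta subunit help to reach the membrane and to gate. Voltage-gated sodium channels have a single pore protein, joined by small beta subunits, and carry the upstroke of the action potential. Several gamma subunit genes of the calcium channel family are better known as auxiliary proteins of AMPA-type glutamate receptors. Medium spiny neurons are the main cell type of the striatum, of which the accumbens is the ventral part, and dopamine neurons of the midbrain are known as pacemakers that lean on calcium channels.

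Not every library had the profile of the labelled tissue. A library was called accumbens-profile if Drd1, a dopamine receptor of striatal projection neurons, was at 100 CPM or more, and midbrain-profile if Th, the rate-limiting enzyme of dopamine synthesis, was at 100 CPM or more. This gave 147 accumbens-profile libraries (76 E21, 56 numeric, 12 corrected E21, 2 AA1 and 1 other corrected label) and 11 midbrain-profile libraries (10 numeric and 1 E21). No library reached both thresholds, and numeric library number 3 reached neither. Its 8 cortical glutamatergic markers summed to 2737 CPM, above the highest sum in any accumbens-profile library, 1486 CPM. Drd1 had a lowest, median and highest level of 154, 332 and 441 CPM in accumbens-profile libraries, against 1.61, 3.34 and 7.77 CPM in midbrain-profile libraries. Th had 0.222, 0.771 and 10.7 CPM in accumbens-profile libraries, against 630, 1758 and 2107 CPM in midbrain-profile libraries. Drd1 and Th differ by the rule itself. Of the 11 other medium spiny neuron markers, all were higher in the accumbens profile, 10 of them without overlap. Of the 7 other midbrain dopamine markers, all were lower, 6 of them without overlap. The midbrain-profile libraries, by these other markers, go against their tissue label. Markers of other cell types differed as well. The 5 astrocyte markers summed to between 969 and 2518 CPM in accumbens-profile libraries and between 2234 and 6226 CPM in midbrain-profile libraries. Gfap, Aqp4 and Aldh1l1 were lower in the accumbens profile without overlap, but Gja1 differed by 0.09 and Slc1a3 by 0.83 on the log2 scale in the other direction. The 6 oligodendrocyte markers summed to between 9166 and 36489 CPM in accumbens-profile libraries and between 23614 and 32715 CPM in midbrain-profile libraries. The 4 cholinergic markers summed to between 32.8 and 103 CPM in accumbens-profile libraries and between 5.01 and 11.6 CPM in midbrain-profile libraries. Of the 6 GABA interneuron markers, Sst, Npy and Lhx6 were higher in the accumbens profile without overlap. Pvalb was lower without overlap, and Vip and Kit had lower means with overlap. The part of these other cell types in the channel differences was not tested. Because the libraries were set apart by measured levels, the profile comparison is a description with no test. In bulk RNA, fewer cells of a type and less RNA per cell cannot be told apart.

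Many of the members lie beside each other in the rat genome (positions are start sites in GRCr8). On chromosome 3, Scn3a (70666198), Scn2a (70710862), Scn1a (71479870), Scn9a (71701377) and Scn7a (71846454) follow in that order. Scn2b (54322383) and Scn4b (54343873), both encoding beta subunits, are next to each other on chromosome 8, with 21.5 kb between their starts and no other gene of the table in between. Chromosome 8 also holds Scn10a and Scn11a, while Cacng6, Cacng8 and Cacng7 lie together on chromosome 1 and Cacng1, Cacng4 and Cacng5 on chromosome 10. Of the 40 members, 27 had an upstream window in RefSeq's GRCr8 table, and for 9 its start was the start site of the deposited table. The 250 bases before the start are shown for 4 of these 9, as a pair of neighbours and a pair from the chromosome 3 run whose profile differences were unlike in size or in sign: Scn4b (chr8:54343623-54343872, plus strand) and Scn2b (chr8:54322133-54322382, plus strand), then Scn9a (chr3:71701378-71701627, minus strand) and Scn3a (chr3:70666199-70666448, minus strand). They are written 5′ to 3′ in the direction of the gene, and the capitals mark each CpG.
Scn4b: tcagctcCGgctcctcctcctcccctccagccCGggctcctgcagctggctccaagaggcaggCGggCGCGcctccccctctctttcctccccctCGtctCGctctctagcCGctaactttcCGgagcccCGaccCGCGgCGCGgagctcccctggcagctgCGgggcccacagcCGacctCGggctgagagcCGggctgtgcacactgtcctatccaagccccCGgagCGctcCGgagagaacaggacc
Scn2b: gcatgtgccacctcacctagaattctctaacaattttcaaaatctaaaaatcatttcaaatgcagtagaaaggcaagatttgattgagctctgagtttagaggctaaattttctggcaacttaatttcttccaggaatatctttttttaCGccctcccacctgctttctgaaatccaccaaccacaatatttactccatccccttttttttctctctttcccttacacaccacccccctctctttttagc
Scn9a: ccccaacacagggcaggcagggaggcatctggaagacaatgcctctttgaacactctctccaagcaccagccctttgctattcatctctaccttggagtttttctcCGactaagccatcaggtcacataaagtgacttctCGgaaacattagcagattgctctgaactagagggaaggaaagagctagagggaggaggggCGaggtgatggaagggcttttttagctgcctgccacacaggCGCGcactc
Scn3a: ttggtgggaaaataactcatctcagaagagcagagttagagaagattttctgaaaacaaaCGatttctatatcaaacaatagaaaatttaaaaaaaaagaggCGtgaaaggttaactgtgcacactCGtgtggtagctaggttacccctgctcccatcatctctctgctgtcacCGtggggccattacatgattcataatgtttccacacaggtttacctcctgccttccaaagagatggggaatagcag
The neighbours on chromosome 8 had unlike base content, with 21 CpG and 71.6% G or C before Scn4b and 1 CpG and 38.8% G or C before Scn2b. The 2 windows on chromosome 3 were closer, with 5 CpG before Scn9a and 4 before Scn3a. Over all 33469 windows of the table the median was 5 CpG. Of these windows, 86.3% held no more CpG than that of Scn4b and 18.1% no more than that of Scn2b. Known promoter letters were searched on both strands, and none was in any of the 4 windows. The TATA box, searched by the letters TATAAA, was in 12.9% of all windows. The GC box, searched as GGGCGG, was in 30.5%, and the cyclic AMP response element, searched as TGACGTCA, was in 1.59%.

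Scn4b, Cacna2d3, Cacna2d1, Cacng3 and the beta subunit genes Cacnb1, Cacnb3 and Cacnb4 lay higher in the accumbens profile, and Scn7a, Cacna1g, Scn9a, Cacng2 and Cacna2d2 lay lower. For 7 members every accumbens-profile library was above every midbrain-profile library, against 6.57% of all 15427 genes tested. For 5 members every accumbens-profile library was below, against 6.00% of genes. One of the 5, Scn7a, reached a mean of 1 CPM over all libraries only through the midbrain profile, with means of 0.570 CPM in accumbens-profile libraries and 8.75 CPM in midbrain-profile libraries, so it had to differ to be counted. A difference of at least 1 in mean log2(CPM + 1) was seen for 12 members on the higher side (7.07% of genes) and 6 on the lower side (7.14% of genes). The median difference of the 33 members was 0.57 in favour of the accumbens profile, beside -0.02 over all genes tested. Since most midbrain-profile libraries carry a numeric label, the comparison was repeated within that label (56 against 10 libraries). There, 14 members were higher without overlap (11.3% of genes) and 5 lower (9.52% of genes), and the lists of 7 and 5 were contained in them.

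**Figure D1:**
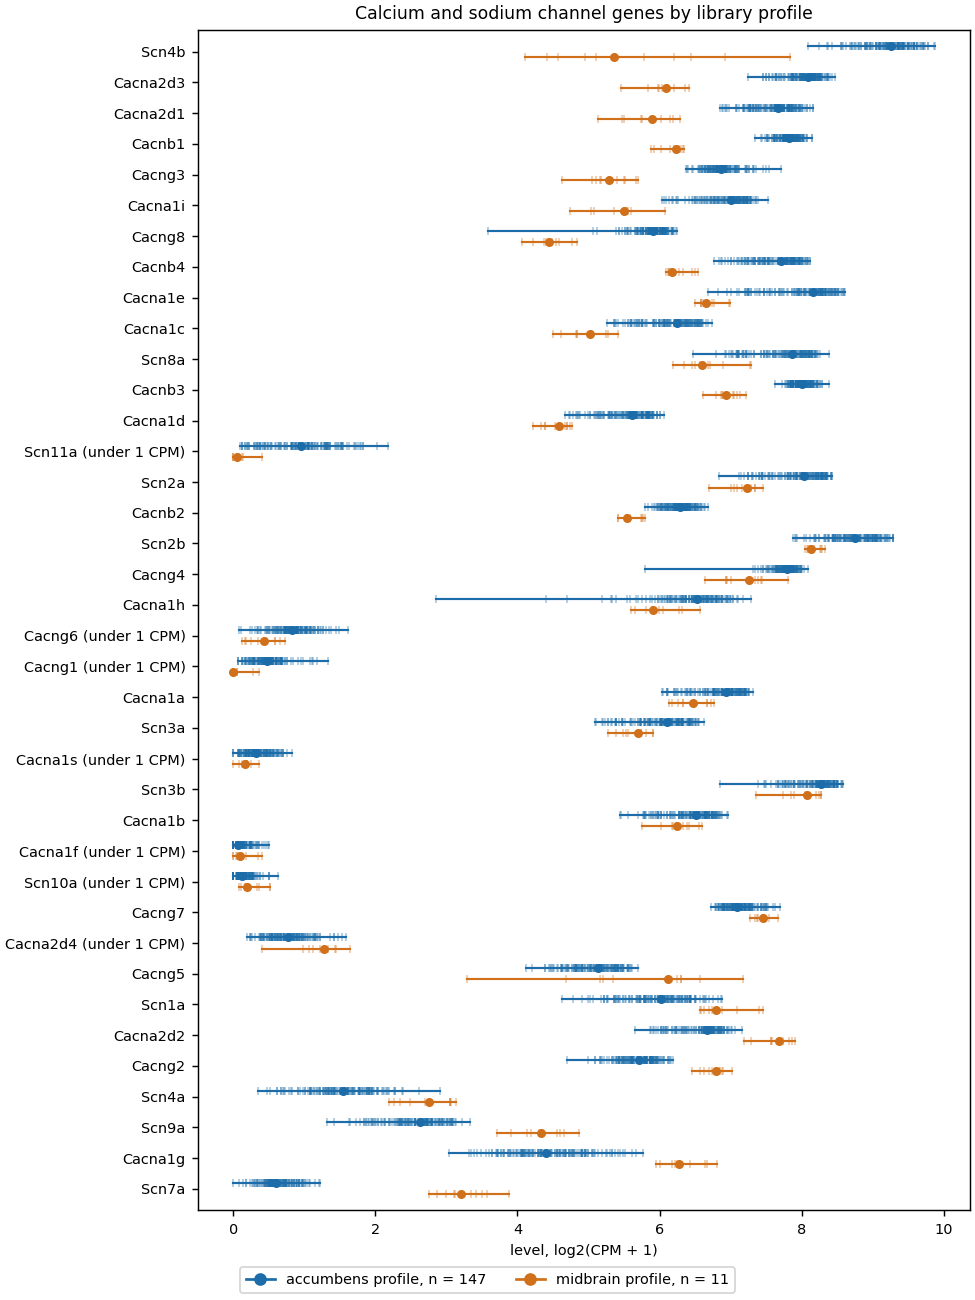
Level of 38 of the 40 channel genes, as log2(CPM + 1), in 147 accumbens-profile libraries (blue, upper line of each pair) and 11 midbrain-profile libraries (orange, lower line). Ticks are libraries, dots medians and lines full ranges; genes are sorted by the difference of means, from Scn4b at 3.61 to Scn7a at -2.62.

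Among the sodium channel beta subunits, Scn4b stood apart. It encodes the beta4 subunit, known for its part in resurgent sodium current and for high levels in striatum. Its lowest, median and highest levels were 272, 610 and 934 CPM in accumbens-profile libraries, against 16.2, 40.1 and 226 CPM in midbrain-profile libraries. The ranges did not touch, and the difference in means was 3.61 on the log2 scale. The library of neither profile had 19.1 CPM. Its SD on the log2 scale was 0.34 over accumbens-profile libraries (n = 147) and 1.15 over midbrain-profile libraries (n = 11). The highest of the midbrain-profile libraries were E21 library number 70 with 226 CPM and numeric library number 34 with 120 CPM, while the lowest was numeric library number 63 with 16.2 CPM. The libraries numbered 70 and 34 also had the highest levels of Pvalb, a marker of fast-spiking neurons, with 117 and 87.4 CPM, and of Slc17a6, a glutamate transporter of subcortical neurons, with 180 and 195 CPM. In the library numbered 63 these were 51.2 and 39.0 CPM. Whether such cells set the Scn4b level was not tested. For Scn2b and Scn3b, which encode more widely used beta subunits, the ranges overlapped. Scn2b had a median of 431 CPM in accumbens-profile libraries against 278 CPM in midbrain-profile libraries. Scn3b had 307 CPM in accumbens-profile libraries against 268 CPM in midbrain-profile libraries.

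**Figure D2:**
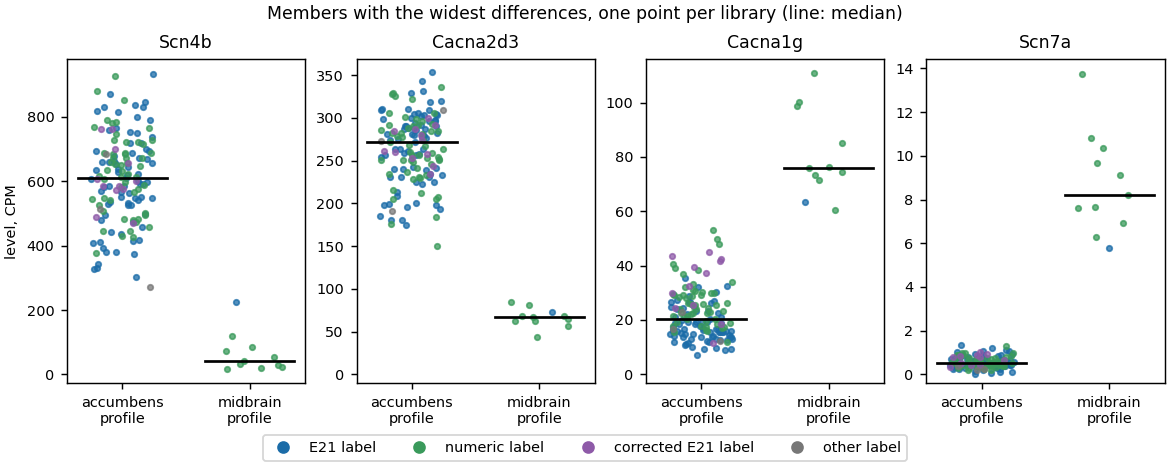
Level in CPM of the 4 members with the widest log2 differences between profiles, 1 point per library, coloured by label, with the median as a line; accumbens-profile libraries are on the left of each panel. Scn4b and Cacna2d3 lie higher and Cacna1g and Scn7a lower in the accumbens profile, with no overlap.

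The sodium channel pores divided. Scn8a, which encodes the Nav1.6 pore of axon initial segments and nodes, had a median of 232 CPM in accumbens-profile libraries (87.7 to 332, lowest to highest), against 95.9 CPM in midbrain-profile libraries (71.7 to 156). The difference was 1.06 on the log2 scale, and 121 of the 147 accumbens-profile libraries were above the highest midbrain-profile library. Scn2a, the Nav1.2 pore of unmyelinated axons, had a median of 261 CPM in accumbens-profile libraries against 150 CPM in midbrain-profile libraries and a difference of 0.79. Scn3a, a pore most used before birth, had 67.8 CPM in accumbens-profile libraries against 50.7 CPM in midbrain-profile libraries and a difference of 0.38. On the other side was Scn1a, the Nav1.1 pore known for its role in interneurons. It had 23.7, 64.2 and 117 CPM in accumbens-profile libraries, against 94.0, 110 and 174 CPM in midbrain-profile libraries, so the ranges overlapped but 138 of the 147 lay below the lowest midbrain-profile library. Scn9a, the Nav1.7 pore best known from pain-sensing neurons, had 1.5, 5.16 and 9.08 CPM in accumbens-profile libraries, against 12.2, 19.2 and 28.3 CPM in midbrain-profile libraries. Its neighbour Scn7a encodes Nax, a sodium-level sensor found in glia and some neurons. It had 0, 0.520 and 1.33 CPM in accumbens-profile libraries, against 5.77, 8.20 and 13.7 CPM in midbrain-profile libraries. Both genes were lower in the accumbens profile without overlap, by -1.79 and -2.62 on the log2 scale. Scn4a, the pore of skeletal muscle, was low in both profiles, with medians of 1.92 CPM in accumbens-profile libraries and 5.76 CPM in midbrain-profile libraries, a difference of -1.21 with overlap.

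The calcium channel pores held a contrast among the T-type genes, which encode channels that open at low voltage. Cacna1g (Cav3.1) had 7.17, 20.2 and 53.2 CPM in accumbens-profile libraries, against 60.6, 76 and 111 CPM in midbrain-profile libraries. The difference was -1.89 on the log2 scale without overlap, but the library of neither profile also had 75.2 CPM. Cacna1i (Cav3.3) had 64.3, 128 and 183 CPM in accumbens-profile libraries, against 25.6, 44.4 and 66.3 CPM in midbrain-profile libraries. It was thus higher by 1.52, and the overlap came down to a single midbrain-profile library at the bottom of the accumbens range. Cacna1h (Cav3.2) had a wide range of 6.26 to 155 CPM in the accumbens profile that covered all midbrain-profile libraries. The lowest value was that of E21 library number 5, and the numeric libraries of the accumbens profile covered 57.4 to 117 CPM. Of the high-voltage pores, Cacna1e (Cav2.3, R-type) had 102, 285 and 391 CPM in accumbens-profile libraries, against 89.4, 99.8 and 126 CPM in midbrain-profile libraries, a difference of 1.32. Cacna1c (Cav1.2, L-type) had 37.3, 74.5 and 106 CPM in accumbens-profile libraries, against 21.6, 31.3 and 41.5 CPM in midbrain-profile libraries, a difference of 1.19. Both overlapped in a few libraries, since 144 and 142 of the 147 accumbens-profile libraries lay above all midbrain-profile libraries. The other L-type pore, Cacna1d (Cav1.3), which is known for pacemaking in dopamine neurons, had a median of 47.8 CPM in accumbens-profile libraries against 23.0 CPM in midbrain-profile libraries, a difference of 0.99. Cacna1a (P/Q-type) and Cacna1b (N-type), the main pores of transmitter release, differed by 0.39 and 0.17 and overlapped.

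All 4 calcium channel beta subunit genes had higher means in the accumbens profile, and 3 did not overlap. Cacnb1 had 162, 226 and 283 CPM in accumbens-profile libraries, against 57.7, 74.3 and 80.4 CPM in midbrain-profile libraries, a difference of 1.64. Cacnb4 had 108, 208 and 277 CPM in accumbens-profile libraries, against 67.1, 71 and 91.7 CPM in midbrain-profile libraries, a difference of 1.37. Cacnb3 had 196, 256 and 333 CPM in accumbens-profile libraries, against 96.8, 121 and 148 CPM in midbrain-profile libraries, a difference of 1.05. Cacnb2 differed by 0.68, with 146 of the 147 accumbens-profile libraries above all midbrain-profile libraries. Among the alpha2delta genes, whose products bring channels to the membrane, Cacna2d3 had 150, 272 and 353 CPM in accumbens-profile libraries, against 43.1, 66.9 and 84.4 CPM in midbrain-profile libraries. Cacna2d1, a binding site of gabapentin, had 114, 202 and 285 CPM in accumbens-profile libraries, against 34.2, 58.3 and 77.3 CPM in midbrain-profile libraries. These were 1.98 and 1.79 higher on the log2 scale without overlap. Cacna2d2 went the other way, with 49.4, 101 and 143 CPM in accumbens-profile libraries, against 145, 205 and 238 CPM in midbrain-profile libraries, a difference of -1.05 that also left no overlap.

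The gamma genes of AMPA receptor regulation were mixed too. Cacng3 (gamma-3) had 82.2, 115 and 207 CPM in accumbens-profile libraries, against 23.7, 37.9 and 50.9 CPM in midbrain-profile libraries, and was higher by 1.59 without overlap. Cacng2 (stargazin) had 25.0, 51.3 and 72.3 CPM in accumbens-profile libraries, against 86.8, 110 and 128 CPM in midbrain-profile libraries, and was lower by -1.07 without overlap. The library of neither profile had 100 CPM of Cacng2, within the midbrain-profile range. Cacng8 (gamma-8) had a median of 59.2 CPM in accumbens-profile libraries against 20.7 CPM in midbrain-profile libraries and was higher by 1.41. It overlapped through 1 accumbens-profile library at 11.0 CPM, E21 library number 5. Cacng5 (gamma-5) covered 16.3 to 51 CPM in accumbens-profile libraries, against 8.73 to 143 CPM in midbrain-profile libraries. Of the 11 midbrain-profile libraries, 6 were above the whole accumbens range and 1 was below it. Cacng4 and Cacng7 differed by 0.57 and -0.32 with overlap. The 7 members under 1 CPM were Cacna1f, Cacna1s, Cacna2d4, Cacng1, Cacng6, Scn10a and Scn11a, several of which are known from retina, muscle or sensory ganglia. None went above 3.53 CPM in any accumbens-profile library or above 2.14 CPM in any midbrain-profile library. Cacna2d4 starts 28.9 kb from Cacna1c, and its median was 0.710 CPM in accumbens-profile libraries and 1.42 CPM in midbrain-profile libraries.

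Proteins that bind or scale these channels were followed through a list of 30 partner genes. Of these, 7 were higher without overlap in the accumbens profile and 1 was lower, beside the same background of 6.57% and 6.00%. Rem2, a small GTPase that holds back calcium channels, had 14.6, 38.5 and 50.1 CPM in accumbens-profile libraries, against 1.80, 2.75 and 3.89 CPM in midbrain-profile libraries, a difference of 3.4. Itpr1, the calcium release channel of the endoplasmic reticulum, was higher by 2.40. Rims2, a presynaptic scaffold that binds calcium channels, was higher by 1.91, and Nedd4l, a ubiquitin ligase known to remove sodium channels, by 1.68. Fgf14, a sodium channel binding protein of the initial segment, was higher by 1.41. The lower gene was Cachd1, an alpha2delta-like protein, with 3.34, 13.2 and 24.6 CPM in accumbens-profile libraries, against 47.6, 52.6 and 82.9 CPM in midbrain-profile libraries.

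Between the 147 accumbens-profile rats, log2 levels of the 33 members had an SD of 0.31 in the median, beside 0.24 over all genes tested. Cacnb3 was the steadiest, at 0.13, and Cacna1g (0.54) and Cacna1h (0.54) varied most. For Cacna1h the SD was 0.70 within E21 and 0.23 within numeric libraries. The spread depended on the label. The median SD of the members was 0.37 over 76 E21 libraries, 0.21 over 56 numeric libraries and 0.17 over 12 corrected E21 libraries, beside 0.26, 0.19 and 0.16 over all genes tested in the same libraries. A few E21 libraries held many of the lowest values. E21 library number 60 was lowest for 8 of the 33 members, Scn1a, Scn2a and Scn8a among them. E21 library number 5 was lowest for 7 members, and a single gene, Zfp532, took 9.18% of its counts. The 16 pore-forming members with at least 1 CPM summed to a lowest, median and highest of 699, 1546 and 2042 CPM over the 147 libraries, and the 3 lowest sums were those of E21 libraries number 60, 2 and 5. The myelin gene Mbp was at 18242, 7272 and 4950 CPM in these 3, beside a median of 7584 CPM, so it was high in 1 of them.

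Members that can share a channel or a place in the cell mostly moved together between rats, with values that were not alike in each label (the difference between labels was not tested). Calcium and sodium pores outside the chosen pairs did so as well, and whether the chosen pairs did so more was not tested. Of 12 chosen pairs, 10 are reported here, and each had a Pearson correlation of log2 levels that passed a two-sided permutation test with Benjamini-Hochberg adjustment over the 12 (100000 resamples, smallest possible p 1e-05). Libraries of all labels were permuted together, so the p-values do not part differences between labels from covariation within a label. The L-type pores Cacna1c and Cacna1d had r = 0.90 (Spearman rho 0.88, both p = 1e-05, adjusted 1.33e-05 and 1.5e-05, n = 147), and 0.89 without the 2 libraries farthest from the median. Their r was 0.92 within E21, 0.73 within numeric and 0.70 within corrected E21 libraries. Scn1a and Scn8a had r = 0.84 (rho 0.81, the same permutation p-values, n = 147), 0.82 without the 2 farthest, and 0.86, 0.74 and 0.72 within those labels. Scn8a and Scn4b, whose products pair in resurgent current, had r = 0.59 (rho 0.53, the same permutation p-values, n = 147) and 0.57 without the 2 farthest. Within labels this was 0.75 in E21, 0.14 in numeric and -0.01 in corrected E21 libraries, so the relation did not hold in all of them. Cacna1b and Cacnb3, whose products form N-type channels, moved in opposite directions, with r = -0.27 (rho -0.28, permutation p = 0.0011 and 0.0007, adjusted 0.0012 and 0.00084, n = 147) and -0.27 without the 2 farthest. Within labels this was -0.30 in E21, -0.48 in numeric and 0.55 in corrected E21 libraries. The other 6 pairs had r between 0.38 and 0.82 (permutation p = 1e-05 for each r, n = 147). Of these, Cacna1a and its alpha2delta partner Cacna2d3 had the lowest, with 0.62 within E21 but -0.15 within numeric and -0.42 within corrected E21 libraries. Cacna1a and Cacnb4 had the highest, with 0.90 within E21, 0.52 within numeric and 0.17 within corrected E21 libraries. Scn2a and Scn3b had r = 0.75, with 0.85 within E21 and 0.29 within numeric but -0.34 within corrected E21 libraries. Over all 528 pairs of members the median r was 0.36, with a range of -0.69 to 0.95. The highest was that of Cacna1b with Scn8a, a calcium and a sodium pore, which was not among the chosen pairs. All libraries share a scaling to their total, which ties the levels of different genes to each other.

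**Figure D3:**
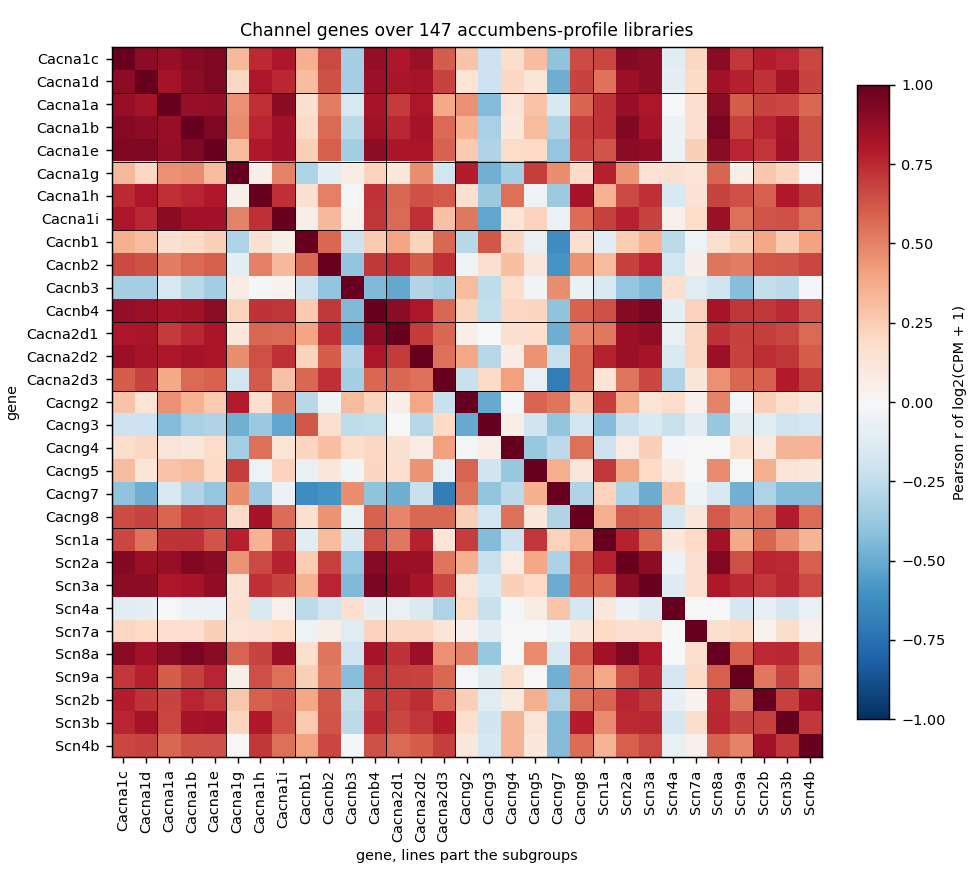
Pearson correlation of log2(CPM + 1) over 147 accumbens-profile libraries, with lines between subgroups. The 31 members drawn had a mean of at least 1 CPM over all libraries of both profiles and neither. A red block joins most calcium and sodium pores (Cacna1c and Cacna1d at 0.90), while Cacng7, Cacnb3, Cacng3, Scn4a and Scn7a correlate weakly or negatively with most of that block. Scn7a had a median of 0.520 CPM in these libraries, so its correlations rest on few counts.

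Libraries with an E21 label had lower levels of 14 members and higher levels of 2 than libraries with a numeric label (76 against 56 accumbens-profile libraries; limma, adjusted p under 0.05 over all genes). Lower calls were made for 25.9% of all genes and higher calls for 11.7%. With the log2 total of each library as a covariate, 10 members were lower and 1 higher, and over all genes 2329 were lower and 784 higher. The largest fall was in Cacna1g, with 7.17, 16.1 and 35.4 CPM in E21 libraries, against 12.0, 25.0 and 53.2 CPM in numeric libraries. The ranges overlapped, and the log2 change was -0.55 ± 0.08 (SE, limma adjusted p = 2.7e-08). Scn1a followed with 23.7, 55 and 99.9 CPM in E21 libraries, against 41.7, 71.9 and 116 CPM in numeric libraries (-0.43 ± 0.07, limma adjusted p = 3.46e-07). The sodium pores Scn8a (-0.24) and Scn2a (-0.17) and the beta gene Scn2b (-0.14) fell as well. So did the calcium pores Cacna1a (-0.21), Cacna1i (-0.17) and Cacna1b (-0.16), the alpha2delta gene Cacna2d2 (-0.24) and the gamma genes Cacng2 (-0.24), Cacng5 (-0.24) and Cacng7 (-0.12). Cacng3 rose, with 82.2, 120 and 207 CPM in E21 libraries, against 82.7, 110 and 135 CPM in numeric libraries (0.17 ± 0.04, limma adjusted p = 0.00014), and Cacnb1 rose by 0.07 ± 0.03 (limma adjusted p = 0.034). The L-type pores Cacna1c (-0.13) and Cacna1d (-0.10) and the beta gene Scn4b (-0.08) did not pass the test. Over all genes the split of higher and lower calls was 1808 and 3988, but 2846 and 2782 with median-of-ratios scaling and 3087 and 2727 with quantile normalization. Among the members, both higher calls and 12 of the 14 lower calls were shared with median-of-ratios scaling, which lost Cacna1b and Scn2b, and all 16 calls were shared with quantile normalization.

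The content of the fit changed the list. With all libraries of both labels, midbrain-profile ones included, 8 members were higher and 11 lower in E21, and 9 of the 14 lower calls were shared. Over all 15427 genes, 2688 were higher and 4667 lower in this wider fit. Scn4b was then higher by 0.56 (limma adjusted p = 0.0074), against -0.08 (limma adjusted p = 0.32) among accumbens-profile libraries. The numeric side of the wider fit holds 10 of the 11 midbrain-profile libraries. Markers of cortical neurons also moved with the label, and whether this reflects cortical tissue in the samples was not tested. The score of 8 cortical glutamatergic markers, a mean of log2(CPM + 1), had a median of 3.09 in E21 libraries and 4.07 in numeric libraries. With this score as a covariate 22 members were lower and 2 higher in E21, and 11 of the 14 lower calls were shared. Over all genes, 4845 of 15427 were lower and 1883 higher in that fit, beside 3988 and 1808 without the score. Cacna1c (-0.20, limma adjusted p = 0.0057), Cacna1d (-0.20, limma adjusted p = 0.0021) and Scn4b (-0.19, limma adjusted p = 0.0060) were among the 11 lower calls gained. The E21 and numeric medians, without the covariate, were 74.8 and 74.5 CPM for Cacna1c and 48.8 and 47.4 CPM for Cacna1d. So these 2 medians were not lower in E21, where the SD on the log2 scale was 0.43 and 0.39, against 0.20 and 0.17 in numeric libraries. Scn4b had medians of 601 and 634 CPM. Cacng7 and Cacng5 were among the lower calls lost, and Cacng7 then had -0.01 (limma adjusted p = 0.70). Cacna1g kept a change of -0.31 (limma adjusted p = 3.49e-05) and Scn1a of -0.32 (limma adjusted p = 9.81e-05). Without the covariate, 17 of the 30 partner genes fell and 2 rose, beside 25.9% and 11.7% of all genes. The falls were led by Stac2, an adaptor of L-type channels, at -0.51, and Cabp1, a calcium sensor that binds channel pores, at -0.45. With the cortical score as a covariate, 20 partner genes fell and 1 rose. Stac2 then had -0.10 (limma adjusted p = 0.14) and Cabp1 -0.18 (limma adjusted p = 0.00067).

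**Figure D4:**
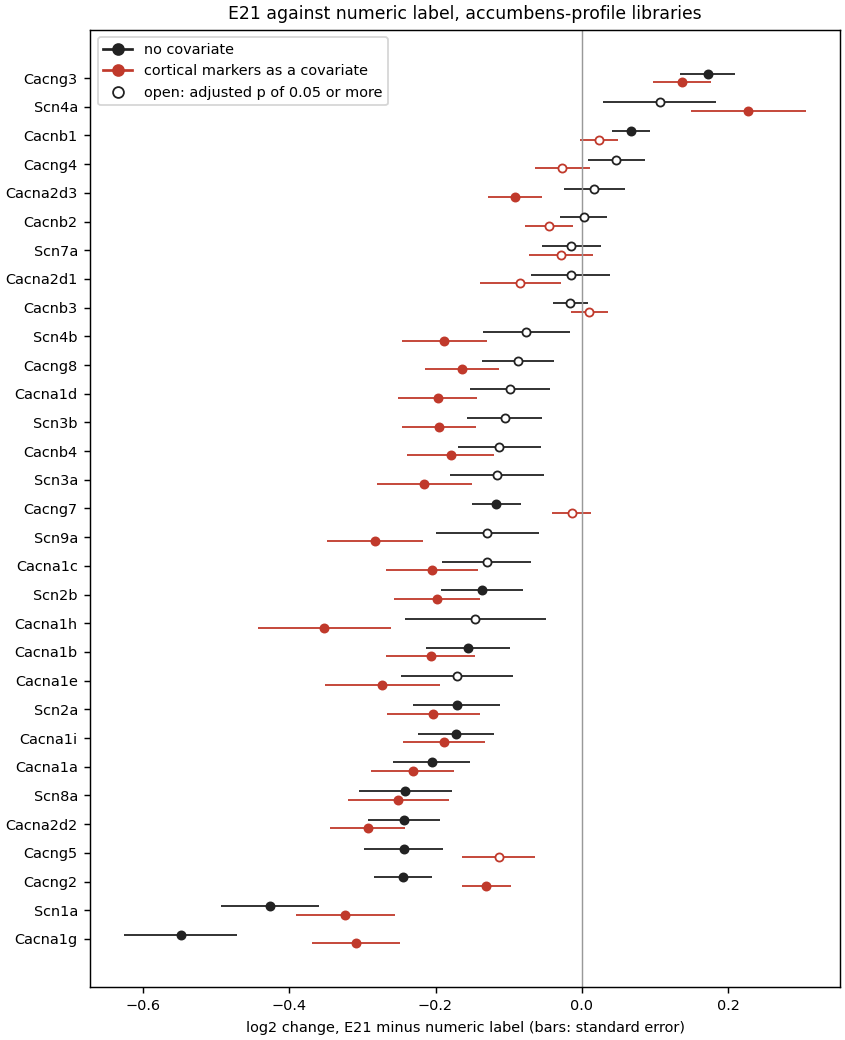
Log2 change of 31 members, E21 minus numeric label, with standard errors, over 76 and 56 accumbens-profile libraries; black points are without and red points with the cortical marker score as a covariate, and open points did not pass limma's adjusted threshold. Most points lie left of 0, with Cacna1g at -0.55, and Cacng7 moves to -0.01 with the covariate.

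The 12 corrected E21 libraries, set against the 76 E21 libraries, were higher in 5 members and lower in 0 (limma; 6.32% of genes higher, 1.88% lower). At an unadjusted p under 0.05, limma had 13 of the 33 members in either direction, and 3548 of all 15427 genes. Cacna1g had 11.5, 35.0 and 44.9 CPM in corrected E21 libraries, against 7.17, 16.1 and 35.4 CPM in E21 libraries (0.82 ± 0.14, limma adjusted p = 0.00018). Scn1a had 54.7, 71.9 and 117 CPM in corrected E21 libraries, against 23.7, 55 and 99.9 CPM in E21 libraries (0.51 ± 0.13, limma adjusted p = 0.0053). Scn8a (0.38) and Cacng2 (0.29) were among the other rises. In each of the 5 the ranges overlapped. These 5 genes are among the 14 that were lower in E21 than in numeric libraries, and the 2 comparisons share the E21 libraries. The cortical score had a median of 4.62 in corrected E21 libraries and 3.09 in E21 libraries. With the score as a covariate, Cacna1g (0.46, limma adjusted p = 0.043) was the sole one of the 5 to pass, and Scn3b (0.33, limma adjusted p = 0.0496) passed beside it. Scn1a then had a change of 0.37 (limma adjusted p = 0.064) and Scn8a of 0.42 (limma adjusted p = 0.055). Over the 33 members the median change was 0.16 without and 0.24 with the covariate, and 13 and 18 of them had an unadjusted p under 0.05. Calls over all genes in either direction went down as well, from 8.20% without to 2.81% with the covariate. Unadjusted limma p-values under 0.05 were seen for 3548 genes without and 4898 with it. The split of higher and lower calls over all genes was 975 and 290, but 722 and 548 with median-of-ratios scaling and 757 and 606 with quantile normalization.

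The cortical score itself was then taken as the variable over the 147 accumbens-profile libraries, a choice made after the data were seen. It ranged from 1.13 to 6.00, and Slc17a7, a glutamate transporter of cortical neurons, from 1.92 to 1148 CPM. Levels of 8 members rose and of 13 fell with the score (limma adjusted p under 0.05; 19.6% of genes rose, 23.4% fell). Cacna1g gained 0.38 ± 0.03 on the log2 scale per unit of the score (limma adjusted p = 6.75e-29), Scn1a 0.20 ± 0.03 (limma adjusted p = 3.39e-09), Cacng5 0.19 ± 0.02 and Cacng2 0.17 ± 0.01. Cacng7, Scn4a and Cacnb3 rose by 0.13, 0.11 and 0.03 per unit. Cacna1h fell, with a slope of -0.19 ± 0.04 per unit (limma adjusted p = 1.09e-05), and Scn9a (-0.13), Cacna2d3 (-0.11), Scn4b (-0.10) and Cacng4 (-0.09) followed. Of the T-type genes, Cacna1g and Cacna1h thus lay on opposite sides here, whereas the profile contrast was between Cacna1g and Cacna1i. With the score, Cacna1i had a Pearson r of 0.08 (permutation p = 0.32). Adding the label as a covariate left all 8 rises and all 13 falls in place and added 6 falls. Cacna1g then gained 0.32 and Cacng2 0.15 per unit.

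**Figure D5:**
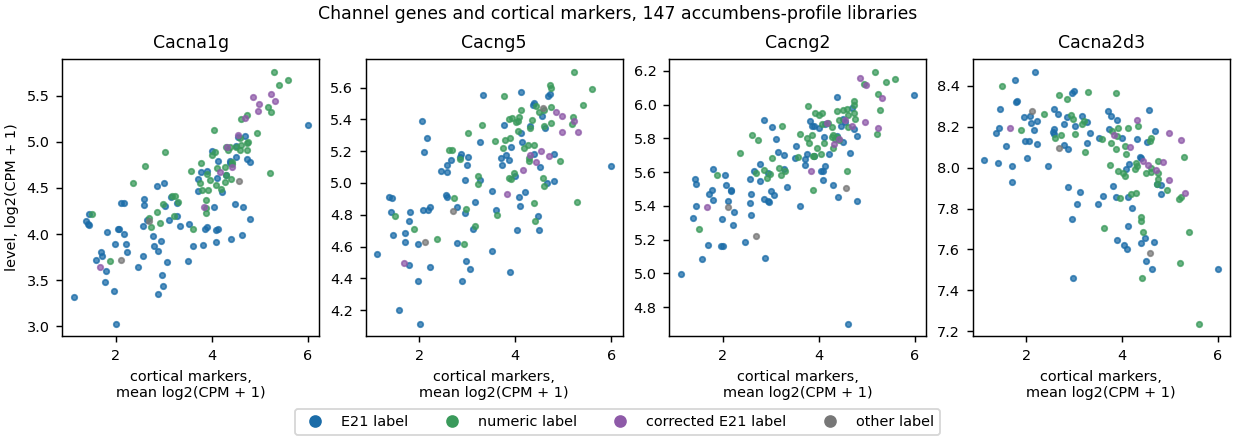
Level of 4 members, log2(CPM + 1), against the cortical marker score over 147 accumbens-profile libraries, 1 point per library, coloured by label. Cacna1g, Cacng5 and Cacng2 rise with the score at 0.38, 0.19 and 0.17 per unit, and Cacna2d3 falls at -0.11.

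A score of 6 oligodendrocyte markers, built like the cortical one and likewise taken up after the data were seen, ranged from 9.5 to 11.3 over the same libraries. With it, 22 members fell and 1 rose (limma adjusted p under 0.05; 20.8% of genes fell, 30.5% rose). The falls took in 6 of 8 sodium pores, all 5 L-, P/Q-, N- and R-type pores and all 3 alpha2delta genes with at least 1 CPM. Scn3a (-0.55 ± 0.09 per unit, limma adjusted p = 4.63e-08), Scn2a (-0.55 ± 0.08, limma adjusted p = 7.13e-09) and Scn2b (-0.52 ± 0.08, limma adjusted p = 6.7e-09) had the steepest slopes. The rise was in Cacng7, at 0.20 ± 0.05 per unit (limma adjusted p = 0.00068). With the label as a covariate, the same 22 falls remained, and Scn4a was among the genes that also rose.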

How the data were processed

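The deposited values are log2 of an estimated count plus 1 per gene, read from the values; the submitters' processing notes name kallisto 0.48, while neither annotation nor summing of transcripts is given in the sources used here. They were turned back to counts and scaled to 1000000 per library (CPM). Tests used log2(CPM + 1), which understates changes of low genes, on the 15427 genes whose mean reached 1 CPM. Values were not scaled by transcript length, so levels of different genes are not compared. Reads of similar paralogs and of overlapping genes can be shared. Start positions in the table equal RefSeq gene ends in GRCr8 for 38272 of 38278 matched symbols (99.98%), so they are given in that build. Label groups were compared with limma 3.58.1 (R 4.3.3, trend, two-sided, Benjamini-Hochberg), after a test on simulated data. P-values measure the spread between libraries, taken as rats. Alternatives were other scalings, pseudocounts, filters, thresholds and marker covariates. Library numbers follow the order of the labels within a group. Some members and pairs are counted but not reported singly here; the others are described, singly where profiles did not overlap, differed by at least 1 or a label comparison called it. The members, gene lists and pairs were chosen with earlier results of these data known. Correlations and descriptions were computed in Python 3.11.15 with numpy 2.4.6 and pandas 2.3.3.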

Additional observations from a re-analysis of the deposited data

How the results depend on the processing

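The 7 higher and 5 lower members without overlap between profiles kept their direction under other scalings, pseudocounts, filters and thresholds. Cacna1c, Cacna1i and Cacnb2 joined the higher ones with median-of-ratios scaling (7.86% of genes higher) and with quantile normalization (7.66%). Cacnb2 joined them at a threshold of 200 CPM, and Cacng8 without the 2 libraries lowest in most members. The higher count was 14 within the numeric label. In E21 against numeric libraries, the higher count of 2 became 8 with all libraries, 1 with the log2 total as a covariate and 1 without a filter on low values. Higher calls over all genes were 2688 with all libraries and 1535 of 34442 without the filter. The lower count of 14 became 10 with the log2 total as a covariate, where lower calls over all genes went down to 2329 (3988 without it) and higher calls to 784 (1808 without it). It became 22 with cortical markers and 23 with cortical, oligodendrocyte and astrocyte markers as covariates. Lower calls over all genes were 4845 and 5189 in these fits. In corrected E21 against E21 libraries, the higher count of 5 became 3 with all libraries and 3 with median-of-ratios scaling. It became 2 with cortical markers and 0 with the 3 marker scores (limma; 19 members at an unadjusted p under 0.05). Calls over all genes went down too, from 8.20% to 2.81% with cortical markers and 0.117% with the 3 marker scores. In the last fit 4775 of 15427 genes had an unadjusted limma p under 0.05. The loss of calls was thus not particular to the members. The lower count of 0 became 1 (Cacng4) without the 2 libraries lowest in most members. The oligodendrocyte slope had 3 rises with the label as a covariate and 2 without those libraries. The r of Cacna1a and Cacna2d3 turned to -0.15 within numeric libraries. The cause was not tested. No paired analysis was possible because the labels give no shared replicate numbers. At 14.6 M (1000000) counts in the shallowest library, members under 1 CPM rest on few reads.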
